A study of Homo sapiens with 5 samples.

Results

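Gene expression in a spheroid culture of PC-3 cells was set against a flat (2D) culture of the same line, gene by gene and across 68 lists of gene families and pathways. PC-3 is an established human prostate cancer line that grows without androgen. The 2 arrays were found by their titles among the 5 of the series, 1 array per condition, and both held total RNA of cells that the labels give as untreated and without any hairpin. The other 3 arrays held hairpin-expressing PC-3 cells. Of these, shGFP carried a control sequence aimed at GFP, and shTRIB1-1 and shTRIB1-2 carried a pair of sequences labelled as depleting TRIB1. The labels give no culture format for these 3 beyond the dish protocol listed for every sample. They gave a range of other cultures of the line, and they entered the choice of each gene's probe set by its mean over all 5 arrays. The shGFP array was also averaged with 2D as an alternative reference. The labels give no passage, medium, spheroid size or age, and they list the same dish protocol for the spheroid sample as for the others, so how the spheroids were formed is not stated.

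Cells in a spheroid contact each other and a self-made matrix on all sides, and those inside receive less oxygen, nutrients and growth factors than cells on plastic. Division is often slower there, and epithelial lines can take up secretory or barrier programmes that flat culture represses. PC-3 is a useful line for this question because it keeps epithelial keratins beside mesenchymal vimentin.

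The level of a gene is the log2 of its deposited RMA intensity, and all differences are the spheroid level minus the 2D level on that log2 scale. Of 19775 genes with a probe set, 10570 reached a level of 6 on either array and were compared. Of these, 389 reached it on the spheroid array alone and 387 on the 2D array alone. A difference of at least 1 in size, which is 2-fold, was the threshold for counting a gene. Where a median over probe sets is given, the median level of all the gene's probe sets was taken on each array before subtraction. With 1 array a side no difference has a replicate check, and no p-value is given.

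Of the 10570 genes, 534 (5.05%) had a spheroid level at least 2-fold above 2D, and 553 (5.23%) had one at least 2-fold below. A 4-fold difference was reached by 114 genes upward (1.08%) and 132 downward (1.25%), and an 8-fold difference by 36 and 34. The middle of the distribution was narrow, with a median difference of -0.01 and quartiles at -0.31 and 0.29. Of the 534 higher genes, 413 (3.91% of all compared) were above all 4 other arrays as well, and 121 were not. Of the 553 lower genes, 465 (4.4% of all compared) were below all 4 others. Whatever the size of the difference, the spheroid was above all 4 other arrays in 25.6% of compared genes and below them in 27.6%. These shares are the background for such counts in the lists. Among the called genes the 2D array was itself often the extreme one. It was below the other 4 arrays in 320 of the 534 higher genes, against 20.8% of all compared genes, and above them in 412 of the 553 lower genes, against 24.9%. The call itself places 2D below or above the spheroid, so these shares exceed those of all genes partly by construction. For scale, the shGFP array differed 2-fold from the same 2D array in 223 genes upward (2.13%) and 221 downward (2.11%) of 10450. The shares were 4.13% and 4.85% for shTRIB1-1 and 4.37% and 4.4% for shTRIB1-2. Where a called gene had 2 or more probe sets at a level of 6, they all had the same sign in 210 of 230 higher genes and in 202 of 217 lower genes. They all reached 2-fold in 120 of the 230 and 136 of the 217.

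**Figure D1:**
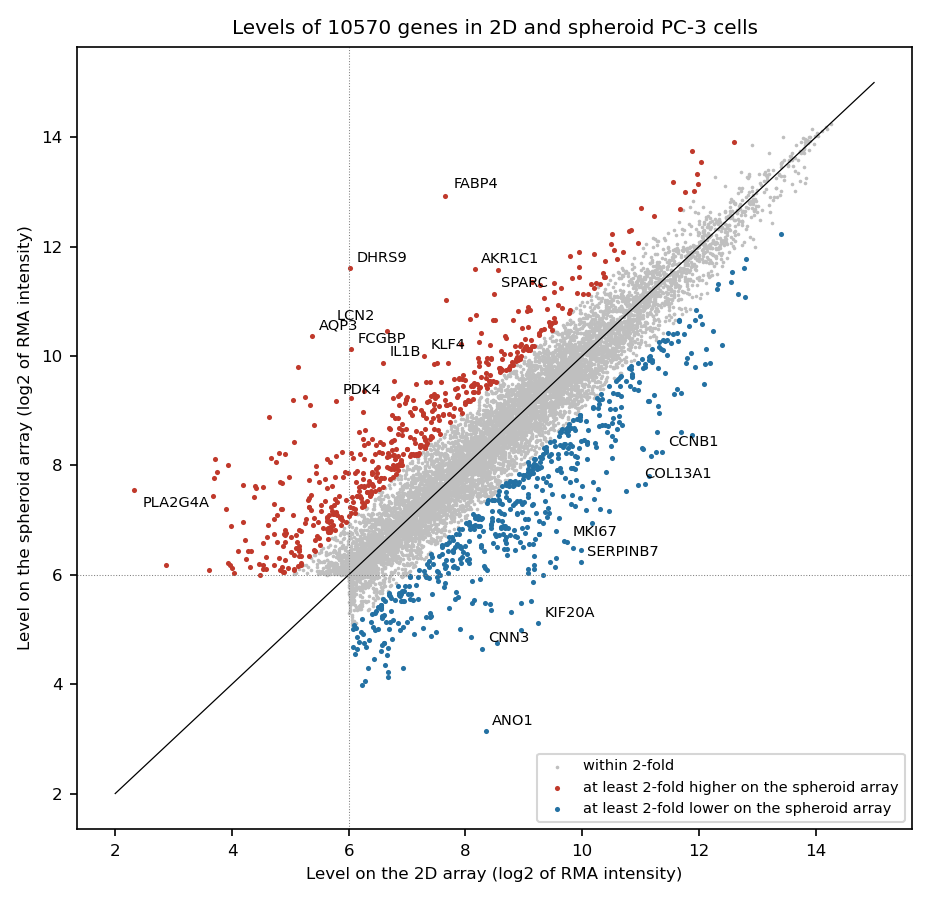
Level of each of the 10570 compared genes (log2 of RMA intensity) on the 2D array (x axis) and the spheroid array (y axis), 1 array each, with the line of equality and dotted lines at the level filter of 6. The 534 genes at least 2-fold higher and the 553 at least 2-fold lower flank a narrow band, and several of the most distant ones (PLA2G4A, AQP3, ANO1, CNN3) lie below a level of 6 on 1 of the 2 arrays.

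Markers of the epithelial line were present on both arrays. All 9 identity genes with a probe set, among them KRT8, KRT18, KRT19, EPCAM and VIM, lay between 10.17 and 13.04 on the 2D array and between 9.39 and 12.48 on the spheroid array. Of them 8 were lower in the spheroid, none 2-fold, and the median over the 9 was -0.32. The 10 fibroblast markers were all below a level of 6 on all 5 arrays, and their summed intensity was 241 in 2D, 288 in the spheroid and 235 to 254 on the hairpin arrays. Of 9 blood and endothelial markers, 2 reached a level of 6, the globin gene HBB, at 6.15 on both arrays, and the adhesion receptor PECAM1, at 7.57 in 2D, 9.53 in the spheroid and 5.70 to 6.62 on the hairpin arrays. The PECAM1 difference was 1.12 as the median over its probe sets. The summed intensity of the 9 was 396 in 2D and 950 in the spheroid, and 263 to 311 on the hairpin arrays. KLK3, a gene that PC-3 is known to lack, stood at 6.90 on all 5 arrays. The actin 5′ to 3′ signal ratio was 0.184 in 2D, 0.131 in the spheroid and 0.436 to 0.445 on the hairpin arrays. That of GAPDH was 0.895, 0.763 and 0.929 to 0.944. The part of these differences in any result was not tested.

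The largest positive differences were listed among genes at a level of 6 on both arrays, with the spheroid above the other 4. All probe sets of the gene that reached a level of 6 on either array had to share the sign. DHRS9, a retinol dehydrogenase, was at 6.02 in 2D and 11.60 in the spheroid, and at 6.45, 6.89 and 7.13 on the shGFP, shTRIB1-1 and shTRIB1-2 arrays. FABP4, a fatty acid carrier of adipocytes and macrophages, was at 7.65 in 2D and 12.92 in the spheroid. The hairpin cultures themselves were far apart for FABP4, at 6.24, 4.96 and 10.09 on the 3 hairpin arrays. FCGBP, a mucus protein of goblet cells, was at 6.04 in 2D, 10.13 in the spheroid and between 5.41 and 6.04 on the hairpin arrays. LCN2 (lipocalin 2), which binds bacterial siderophores, was at 6.66 in 2D, 10.46 in the spheroid and between 5.63 and 6.21 on the hairpin arrays. The spheroid array alone was high for DHRS9, FCGBP and LCN2, while FABP4 was also high on the shTRIB1-2 array.

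The aldo-keto reductases AKR1C1, AKR1C2 and AKR1C3, neighbours on chromosome 10 that reduce steroids, prostaglandins and lipid aldehydes, were higher together. AKR1C1 was at 8.16 in 2D and 11.58 in the spheroid, AKR1C2 at 7.66 and 11.02, and AKR1C3 at 8.56 and 11.57. On the hairpin arrays AKR1C1 lay between 7.93 and 8.63, AKR1C2 between 7.46 and 8.29, and AKR1C3 between 8.46 and 9.34, so the spheroid array stood well clear of the rest. These genes are close paralogs, and their probes may read each other's transcripts. AKR1B10, a related reductase of retinal on another chromosome, was at 8.08 in 2D, 10.68 in the spheroid and 7.11 to 8.20 on the hairpin arrays.

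PLA2G4A, AQP3, RGS4, S100A8, CYP4X1 and FGG had large positive differences too but were below 6 in 2D. The others among the 15 largest by this rule were IL1B (a difference of 3.28), the cadherin CDH26 (3.19), the mitochondrial arginase ARG2 (3.11), the interferon-induced membrane protein IFITM1 (2.77), the lipase inhibitor ANGPTL4 (2.72), the transcription factor KLF4 (2.72) and the matrix protein SPARC (2.65). Without the ARG2 probe sets that end in _s_at or _x_at, its difference was 0.32. KLF4 was an exception among the named genes. It was at 7.29 in 2D and 10.01 in the spheroid, but at 9.94, 9.82 and 9.76 on the shGFP, shTRIB1-1 and shTRIB1-2 arrays. The 2D array was thus the one that stood apart for KLF4, while IFITM1 (8.98 on the shTRIB1-2 array, 9.54 in the spheroid) was nearly as high on 1 hairpin array.

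**Figure D2:**
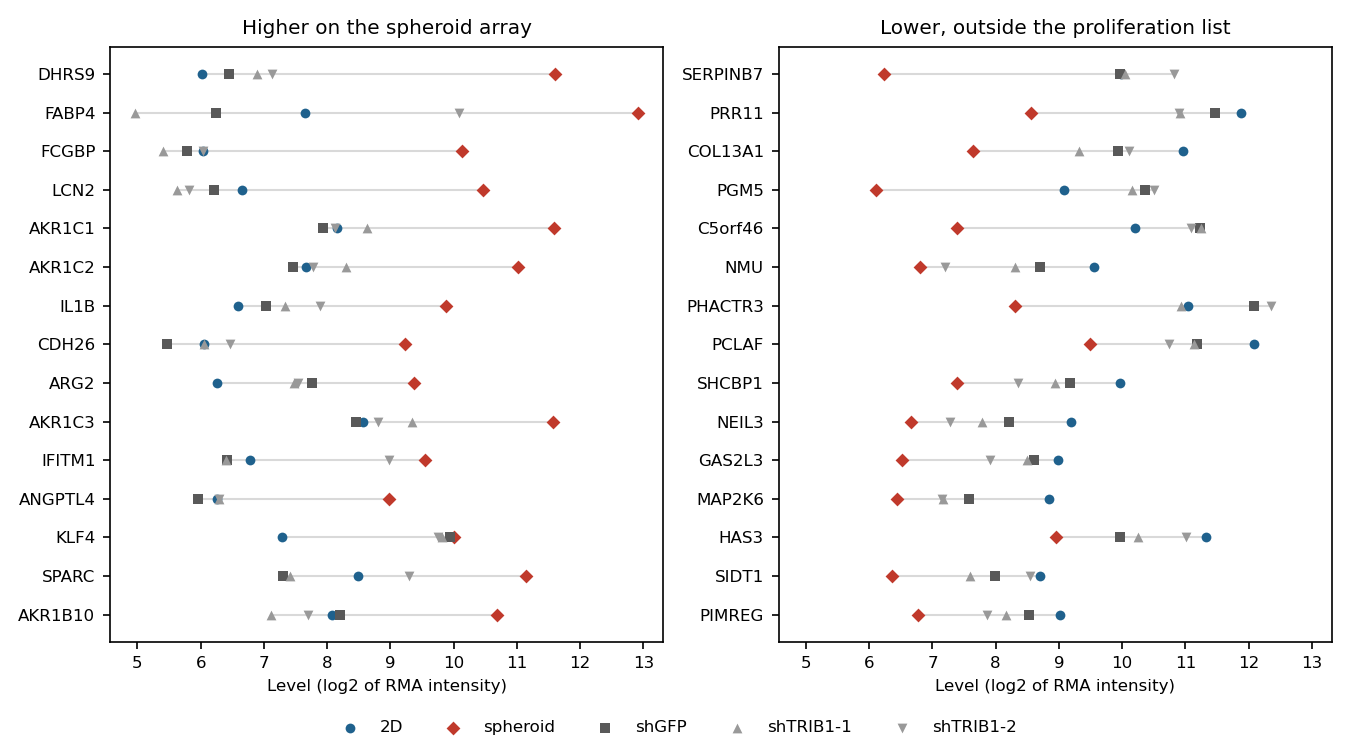
Levels (log2 of RMA intensity, x axis) on the 5 arrays for the 15 genes with the largest positive differences (left) and the 15 with the largest negative differences outside the proliferation list (right), 1 array per symbol, among genes at a level of 6 on both arrays, with the spheroid outside the range of the other 4. Probe sets that reached a level of 6 on the 2D or spheroid array had the same sign. The choice of genes puts the spheroid array (red diamonds) at the end of every row. KLF4 shows the hairpin arrays at 9.76 to 9.94 beside the spheroid at 10.01, with 2D at 7.29.

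Genes of mucosal and barrier secretion were mixed. Of 10 compared genes of mucins and mucosal secretion, 5 were 2-fold higher and 1 was 2-fold lower, with a median of 0.91 against -0.01 over all genes. That median was 0.21 over members at a level of 6 on both arrays, 0.19 against the mean of 2D and shGFP and 0.00 at a level filter of 5. The carcinoembryonic adhesion molecules CEACAM6 (5.89 in 2D, 8.24 in the spheroid) and CEACAM1 (6.25 and 8.38) and the protease inhibitor SLPI (11.56 and 13.18) were higher. CEACAM6 was at 7.33 to 8.34 on the hairpin arrays, which overlaps the spheroid. The trefoil peptide TFF2 was at 6.19 in 2D and 8.20 in the spheroid but at 8.54 to 10.21 on the hairpin arrays, and against the mean of 2D and shGFP it differed by 0.47. PI3 (elafin), another protease inhibitor, was lower, at 9.43 in 2D and 8.17 in the spheroid.

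Calprotectin, the antimicrobial pair of S100A8 and S100A9, was higher on the spheroid array. S100A8 was at 4.63 in 2D and 8.88 in the spheroid and at 4.18 to 4.63 on the hairpin arrays. S100A9 was at 11.23 and 12.56, and S100P, a calcium-binding protein of mucosal tumours, at 11.96 and 13.32. Without probe sets ending in _s_at or _x_at S100A8 did not reach the level filter, and against the mean of 2D and shGFP S100P differed by 0.94. Over the 13 compared S100 and cornified envelope genes, however, 8 were lower and the median was -0.09. SCEL (sciellin), a precursor of the cornified envelope, was at 7.32 in 2D and 5.22 in the spheroid.

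Acute phase, coagulation and complement genes had 7 of 16 members 2-fold higher and 1 2-fold lower, with a median of 0.46. The fibrinogen chain gene FGG went from 3.68 in 2D to 7.76 in the spheroid and was at 3.45 to 4.56 on the hairpin arrays, and its neighbour FGB was at 6.32 and 7.35. FGB reached 8.13 on the shTRIB1-2 array, above the spheroid. The tissue factor pathway inhibitor TFPI2 was higher by 1.61, the copper oxidase CP (ceruloplasmin) by 1.48 and the complement decay factor CD55 by 1.11. The complement component C5 was lower, at 7.50 in 2D, 4.95 in the spheroid and 7.35 to 9.61 on the hairpin arrays.

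Retinoid genes did not share a direction, with 7 of 14 higher, 7 lower and a median of 0.16. Beside DHRS9, the retinol dehydrogenase RDH10 (12.71 in the spheroid, a difference of 1.71) and the retinal reductase DHRS3 (9.06 in 2D and 10.13 in the spheroid) were higher. RDH10 was at 12.04 to 12.86 on the hairpin arrays, so the spheroid lay within their range. ALDH1A3, which makes retinoic acid from retinal, was lower, at 12.78 in 2D and 11.08 in the spheroid, although the median over its probe sets was -0.47.

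Ion and water channels held large differences in both directions, around a median of 0.00 over 23 genes. AQP3, a water and glycerol channel, was at 5.38 in 2D and 10.37 in the spheroid, and at 6.24, 10.04 and 7.37 on the shGFP, shTRIB1-1 and shTRIB1-2 arrays. ANO1, a calcium-activated chloride channel, was at 8.35 in 2D, 3.14 in the spheroid and 7.43 to 8.08 on the hairpin arrays. The spheroid thus stood alone for ANO1, while AQP3 was nearly as high on the shTRIB1-1 array. As medians over their probe sets the differences were 1.28 for AQP3 and -2.90 for ANO1. The potassium channel KCNJ2 was at 4.27 in 2D and 6.43 in the spheroid but at 7.51 to 8.58 on the hairpin arrays.

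Genes of fatty acid handling that PPAR receptors are known to drive were among the higher ones. Of 30 compared PPAR targets and fatty acid oxidation genes, 8 were 2-fold higher, 1 was 2-fold lower, 14 were above all 4 other arrays and the median was 0.29. PDK4, a kinase that shuts off pyruvate dehydrogenase, was at 5.79 in 2D and 9.19 in the spheroid, with 6.69, 5.64 and 8.71 on the shGFP, shTRIB1-1 and shTRIB1-2 arrays. ANGPTL4 was at 6.25 and 8.97, with 5.96 to 6.29 on the hairpin arrays. The lipid droplet coat protein PLIN2 was at 9.14 and 11.36, the acyl-CoA synthetase ACSL5 at 5.14 and 6.82, and the fatty acid carrier FABP5 at 10.83 and 12.31. For these 3 the spheroid was above all 4 other arrays. PDK1, a paralog of PDK4, differed by -1.01. Among the receptors, PPARA was at 6.12 in 2D and 7.85 in the spheroid, whereas PPARG was at 11.48 and 10.66.

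Several enzymes of lipid synthesis were lower. Of 29 genes of fatty acid synthesis and sterol uptake, 17 were lower and 12 higher, with a median of -0.11 that turned to 0.09 against the mean of 2D and shGFP and to 0.05 without probe sets ending in _s_at or _x_at. The fatty acid synthase FASN was at 8.82 in 2D and 7.27 in the spheroid, the lanosterol synthase LSS at 9.72 and 8.22, and the citrate lyase ACLY at 12.01 and 10.73. The hairpin arrays lay between both cultures for these 3 enzymes, and against the mean of 2D and shGFP ACLY differed by -0.85. MYLIP, a ligase that degrades lipoprotein receptors, differed by 2.24 and the lysosomal cholesterol exporter NPC1 by 1.68. Sphingolipid genes had a median of 0.31 over 23 members, with UGCG, the glucosylceramide synthase, higher by 1.10 and the receptor S1PR3 differing by -1.19.

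In the phospholipase A2 and prostaglandin list, single genes of release, synthesis and breakdown were higher. Of 19 compared genes, 6 were 2-fold higher, none was 2-fold lower, 11 were above all 4 other arrays and the median was 0.54. By any amount 12 were higher and 7 lower, and 2 of the 19 were below a level of 6 in 2D. Against the mean of 2D and shGFP the median was 0.29, and at a level of 6 on both arrays it was 0.28. The cytosolic phospholipase PLA2G4A, which frees arachidonic acid from membranes, was at 2.32 in 2D, 7.55 in the spheroid and 2.71 to 3.26 on the hairpin arrays. All 4 other arrays were low for this gene, and with 32 added to each intensity it was 2.57. The prostaglandin E synthase PTGES was at 9.51 in 2D and 11.17 in the spheroid. HPGD, the dehydrogenase that inactivates prostaglandins, was at 9.94 and 11.89, with 11.56 on the shTRIB1-2 array. The lipocortin ANXA1 was at 9.95 and 11.45.

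Oxidation and conjugation genes of the cytochrome P450 and AHR list had 5 of 13 members 2-fold higher and none 2-fold lower, with a median of 0.64, and 4 of the 13 were below a level of 6 in 2D. Over members at a level of 6 on both arrays the median was 0.14. CYP4X1 was at 5.05 in 2D, 9.20 in the spheroid and 4.92 to 5.56 on the hairpin arrays. The dioxin receptor AHR was at 8.42 and 9.54, and against the mean of 2D and shGFP its difference was 0.75. Its classical targets CYP1A1 (5.97 in 2D, 6.96 in the spheroid) and CYP1A2 (6.05 and 7.43) were both above the other 4 arrays. Genes that NRF2 controls did not follow as a list. Of 33, 18 were higher and 15 lower around a median of 0.05, with the 5 that were 2-fold higher being AKR1C1, AKR1C2, AKR1C3, AKR1B10 and the exporter ABCC3 (1.83). The glutathione peroxidase GPX2 differed by -1.28.

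Metal handling leaned upward by small amounts. Of 18 iron genes, 14 were higher with a median of 0.18, led by LCN2, CP and the metalloreductase STEAP2 (7.91 in 2D, 9.03 in the spheroid). Of 24 zinc transporters and metallothioneins, 19 were higher with a median of 0.46. SLC30A1, which exports zinc from the cell, was at 10.30 and 11.31, and 1 of the 24 was 2-fold different.

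Genes of inflammatory signalling differed in both directions. Of 11 compared members of the IL-1 family and its receptors, 4 were 2-fold higher and 7 were above all 4 other arrays, although the median was 0.12. IL1B was at 6.60 in 2D, 9.88 in the spheroid and 7.04 to 7.88 on the hairpin arrays. The IL-18 receptor IL18R1 was at 5.49 and 7.69, and the kinase IRAK2, which relays IL-1 signals, at 7.98 and 9.56. The IL-33 receptor IL1RL1 was at 8.26 in 2D and 10.43 in the spheroid, with 10.06 on the shTRIB1-1 array. The adaptor MYD88 went the other way, at 8.06 and 7.34.

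Chemokines had the highest median of any list (1.22, but 0.32 at a level of 6 on both arrays and 0.33 against the mean of 2D and shGFP). Of 7 compared, 5 were 2-fold higher, and 5 of the 7 were below a level of 6 in 2D. The levels of CXCL2, CXCL3 and CXCL8 set the 2D array apart more than the spheroid. CXCL2, a neutrophil attractant, was at 4.86 in 2D and 7.21 in the spheroid, and at 8.89, 9.72 and 8.28 on the shGFP, shTRIB1-1 and shTRIB1-2 arrays. CXCL3 was at 5.62 and 6.84, and 8.76 to 9.70 on the hairpin arrays. CXCL8 was at 8.62 and 9.76, and 10.26 to 11.94 on the hairpin arrays. For all 3 the spheroid lay between the 2D culture and the hairpin cultures. Against the mean of 2D and shGFP the differences were 0.33 for CXCL2, -0.43 for CXCL3 and 0.18 for CXCL8. CCL20, also among the 5 that were 2-fold higher, differed by 2.22, and by 1.80 against that mean. CCL26, an eosinophil attractant, was the one of these 5 genes above all 4 other arrays, at 5.68 in 2D, 8.05 in the spheroid and 5.33 to 6.97 on the hairpin arrays.

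The IL-6 and STAT3 list had 18 of 27 members higher and a median of 0.25. The kinase PIM1 was at 6.74 in 2D and 8.92 in the spheroid, and the cytokine IL15 at 8.36 and 9.88 with 6.94 to 7.65 on the hairpin arrays. The feedback inhibitors of cytokine receptors were lower, SOCS3 at 7.51 and 5.96 and SOCS2 at 7.92 and 6.48, both below all 4 other arrays. NF-kB subunits and feedback genes had a median of 0.18 over 18 members, with the ubiquitin editor TNFAIP3 higher by 1.18 (0.86 against the mean of 2D and shGFP) and the subunit NFKB1 differing by -0.82. In the TNF superfamily (12 genes, median 0.33), the ligand TNFSF15 was at 5.32 and 7.73 and the receptor TNFRSF19 at 6.62 and 4.34.

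Interferon sensors and regulators had 17 of 23 members higher, 4 of them 2-fold, and a median of 0.27. The oligoadenylate synthetase-like gene OASL was at 6.24 in 2D and 8.48 in the spheroid, the receptor IFNGR1 at 8.38 and 9.86, and the RNA sensor IFIH1 (MDA5) at 6.84 and 8.16. All 3 were above the other 4 arrays. The DNA sensor CGAS was at 7.51 in 2D and 6.08 in the spheroid, but at 5.98 to 6.18 on the hairpin arrays, so here too the 2D array was the one apart.

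Growth factor pathways showed single genes and few list-wide shifts. Over the EGF family and ERBB receptors (9 genes, median -0.01), the ligand EREG was at 4.88 in 2D and 6.75 in the spheroid, and LRIG1, which restrains ERBB receptors, at 5.35 and 7.46. The receptor EGFR was at 9.19 and 8.13, with 9.30 to 9.91 on the hairpin arrays. The ERK feedback list (15 genes, median 0.02) had 1 member past 2-fold, the phosphatase DUSP6, at 10.39 in 2D and 11.74 in the spheroid. AP-1 and immediate early genes (9 genes, median 0.49) had MAFF (1.47) and JUND (1.09) past 2-fold, and neither was above all the hairpin arrays. Against the mean of 2D and shGFP the list median was 0.02. DUSP1 and JUN also lay below all hairpin arrays in both cultures, at 7.93 and 8.91 for DUSP1 against 11.21 to 11.73.

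In the IGF axis (13 genes, median 0.54), binding proteins differed in both directions. The list median was 0.17 over probe-set medians and 0.00 without probe sets that end in _s_at or _x_at. IGFBP4 was at 7.82 in 2D and 5.56 in the spheroid, and IGFBP6 at 9.38 and 7.69, both below all 4 other arrays. IGFBP3 (8.87 and 9.99) and IGFBP5 (4.32 and 6.44) were higher but lay within the hairpin arrays' range. The insulin receptor adaptor IRS2 was at 7.96 and 9.46, also within that range.

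Genes of the TGF-beta family differed in both directions. In the TGF-beta and BMP list (22 genes, median -0.04), 10 were higher and 12 lower. The activin subunits INHBA (10.98 in 2D, 9.52 in the spheroid) and INHBB (9.88 and 7.93) and the activin trap FST, follistatin (11.13 and 9.17), were below all 4 other arrays. INHBB was at 11.61 to 12.32 and FST at 12.56 to 12.82 on the hairpin arrays. The stress cytokine GDF15 was at 11.88 and 13.76, the coreceptor TGFBR3 at 6.34 and 8.41 and the decoy receptor BAMBI at 7.46 and 9.04, all 3 above the other arrays.

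The Wnt list (19 genes, median 0.07) held WNT5A at 5.05 in 2D and 7.09 in the spheroid, within the hairpin range, and the Wnt inhibitor DKK1 at 13.41 and 12.23. The Notch list (17 genes, median -0.03) had LFNG, a glycosyltransferase of Notch receptors, at 7.85 and 6.56. The FGF and PDGF list (16 genes, median 0.08) had FGFBP1, which releases FGFs from matrix, at 10.57 and 9.02. The medians of these 3 lists and of the ERK feedback list changed sign under some alternative settings.

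Regulators of G protein signalling, which speed the shut-off of G proteins, had 3 of 9 members 2-fold higher and 2 2-fold lower. RGS4 was at 5.13 in 2D, 9.79 in the spheroid and 5.99, 8.51 and 7.44 on the shGFP, shTRIB1-1 and shTRIB1-2 arrays. RGS7 was at 6.86 and 8.68, while RGS2 was at 11.94 and 10.66. Ephrins, semaphorins and guidance receptors had 5 of 24 members 2-fold higher and 1 2-fold lower, with a median of 0.04 near the background. The semaphorins SEMA5A (9.26 in the spheroid, a difference of 2.26) and SEMA3A (9.24 in the spheroid, 7.48 in 2D) and the ephrin EFNB2 (9.77 and 8.58) were above all 4 other arrays. The ephrin receptor EPHA2 was at 9.86 and 8.68.

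Division genes made up the largest block of lower genes. Of 187 compared members of a broad proliferation list, 162 (86.6%) were at least 2-fold lower and 75 were at least 4-fold lower, against 5.23% 2-fold lower over all genes, and the median was -1.83. As with all lists, its members were chosen with earlier results of these data known. The spheroid was below all 4 other arrays in 156 of the 187, against 27.6% of all compared genes. The other arrays were not alike either. In 182 of the 187 genes the 2D array was above all 3 hairpin arrays, and the median spheroid difference was -1.09 from the shGFP array, -0.80 from shTRIB1-1 and -0.66 from shTRIB1-2. In bulk RNA, fewer dividing cells and less of these transcripts in each cell cannot be told apart. Among the lowest were KIF14, a kinesin of cytokinesis (9.98 in 2D, 6.45 in the spheroid), the mitotic cyclin CCNB2 (10.46 and 7.17) and FOXM1, a transcription factor of G2 genes (9.45 and 6.23).

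Regulators of entry into the cycle were mixed. Of 16 CDK inhibitors and G1 cyclins, 5 were 2-fold lower and 1 was 2-fold higher, with a median of -0.29. The inhibitor CDKN1A (p21) was at 7.62 in 2D and 8.94 in the spheroid, with 7.40, 9.26 and 7.55 on the shGFP, shTRIB1-1 and shTRIB1-2 arrays. CCNE2, a cyclin of S phase entry, was at 10.29 and 8.71, with no hairpin array above 8.80, so 2D alone was high. Of 20 genes of the p53 pathway, a tumour suppressor that PC-3 is known to lack, 3 were 2-fold higher and 3 lower. The antiproliferative gene BTG1 was at 9.95 and 11.63, whereas TP53I3 (8.69 and 6.57) and the DNA repair gene DDB2 (7.93 and 6.32) were below all 4 other arrays.

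Promoter sequences were searched for 11 short motifs, on both strands, in the window from 250 bases before to 50 after the start of each gene (RefSeq, GRCh38.p14). The CHR element (TTTGAA), which MuvB complexes bind in cell cycle promoters, was in 23.6% of the promoters of 453 2-fold lower genes, 11.2% of those of 428 2-fold higher genes and 9.65% of those of all 8771 compared genes with a sequence. Over 27305 promoters of any gene the share was 15.4%. Among 315 lower genes outside the proliferation list it was 16.5%. The lower genes outside that list still include some known to act in dividing cells, such as PCLAF and NEIL3. The CCAAT box of NF-Y (CCAAT) was in 48.1% of lower, 36.4% of higher and 37.5% of all compared promoters (35.7% of all promoters). The E2F site (TTTCCCGC or TTTGGCGC) was in 9.27%, 0.935% and 3.87% (2.31%). Among the 315 lower genes outside the proliferation list the shares were 41.3% for the CCAAT box and 5.71% for the E2F site.

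The promoters of 3 genes show how these motifs are placed. Capitals mark the CHR element and CCAAT boxes on either strand, and the last base is the one before the gene start. PLA2G4A (chr1:186828699-186828948, + strand) and ASPM (chr1:197146670-197146919, - strand) have the largest differences among the named genes with a CHR element before the start. CCNB2 (chr15:59104896-59105145, + strand) was added after its values were seen.
PLA2G4A: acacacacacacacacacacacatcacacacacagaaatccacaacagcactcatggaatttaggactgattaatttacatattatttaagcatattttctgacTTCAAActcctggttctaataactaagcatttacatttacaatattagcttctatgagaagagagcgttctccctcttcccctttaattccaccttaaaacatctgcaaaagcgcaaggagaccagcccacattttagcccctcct
ASPM: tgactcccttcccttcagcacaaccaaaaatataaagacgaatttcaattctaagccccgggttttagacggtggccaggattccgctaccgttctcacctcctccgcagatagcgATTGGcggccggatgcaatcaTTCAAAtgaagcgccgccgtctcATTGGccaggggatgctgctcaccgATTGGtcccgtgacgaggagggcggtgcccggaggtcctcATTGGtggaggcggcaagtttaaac
CCNB2: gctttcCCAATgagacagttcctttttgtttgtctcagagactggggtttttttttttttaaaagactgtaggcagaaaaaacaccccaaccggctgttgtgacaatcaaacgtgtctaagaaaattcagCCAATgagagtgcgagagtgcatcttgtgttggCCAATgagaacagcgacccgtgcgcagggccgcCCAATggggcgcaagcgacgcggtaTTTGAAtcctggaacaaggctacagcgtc

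ASPM, a spindle pole protein that was lower in the spheroid (8.96 in 2D, 4.99 in the spheroid), and CCNB2 each had 1 CHR element with 4 CCAAT boxes in the 250 bases before the start. The element began 29 bases before the start of CCNB2 and 113 bases before that of ASPM. PLA2G4A, which was higher, had the same 6 letters 146 bases before its start and no CCAAT box in this window.

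The other motifs had smaller differences in share. The AP-1 site (TGAGTCA) was in 4.21% of higher, 1.10% of lower and 2.90% of all compared promoters (4.92% of all promoters). The FOXO site (GTAAACA) was in 3.50%, 1.55% and 2.23% (3.41%). The C/EBP-ATF composite site (TGATGNAAT) was in 1.40%, 0.442% and 0.524% (1.02%), which is 6 higher genes. The MYC-type E-box (CACGTG) was less common in both sets, at 7.71% and 7.28% against 10.4% (7.43%). The antioxidant element (TGACNNNGC) was at 13.3%, 13.2% and 15.5% (13.6%), the TEAD site (GGAATG) at 12.1%, 9.71% and 10.3% (14.05%), the cAMP element (TGACGTCA) at 2.57%, 3.75% and 3.36% (1.98%), and the sterol element (TCACNCCAC) at 0.935%, 0.662% and 1.06% (1.15%). No motif searched contains another, though some could overlap in part, and a match describes letters in the window, not a site in use.

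**Figure D3:**
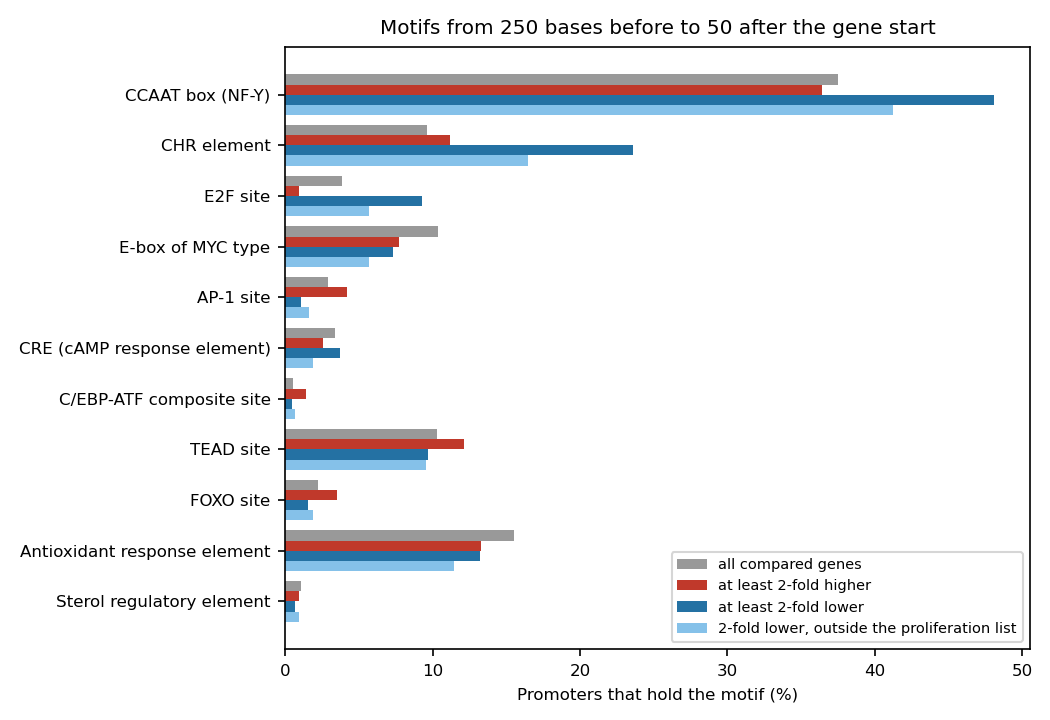
Share of promoters (%, x axis) that hold each of 11 motifs on either strand, among all 8771 compared genes, 428 genes 2-fold higher, 453 genes 2-fold lower and 315 lower genes outside the proliferation list. The CHR element stands at 23.6% of the lower genes against 9.65% of all compared genes, and the E2F site at 9.27% against 3.87%.

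Outside the proliferation list 391 genes were 2-fold lower, and several are known from cell adhesion and secretion. SERPINB7, a serpin of keratinocytes, was at 9.98 in 2D, 6.24 in the spheroid and 9.97 to 10.83 on the hairpin arrays. PGM5, an adherens junction protein, was at 9.08 and 6.10, with 10.16 to 10.50 on the hairpin arrays. COL13A1, a transmembrane collagen, was at 10.96 and 7.65, although the median over its probe sets was -0.99. NMU (neuromedin U, a secreted peptide) was at 9.55 and 6.80, and HAS3, which makes hyaluronan, at 11.32 and 8.95. PHACTR3, a binder of protein phosphatase and actin, was at 11.04 and 8.31. Others of the 15 largest, among them PCLAF (12.09 and 9.49) and the DNA glycosylase NEIL3 (9.19 and 6.65), are known to act in dividing cells although the list did not hold them. This set of genes was chosen after the proliferation list was seen to fill most of the lower end.

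Matrix and adhesion genes were split rather than shifted. Of 40 collagens, laminins and matrix glycoproteins, 6 were 2-fold higher and 11 were 2-fold lower, with 19 below all 4 other arrays and a median of -0.19. SPARC, a collagen-binding glycoprotein, was at 8.50 in 2D, 11.14 in the spheroid and 7.31 to 9.29 on the hairpin arrays. The laminin chain LAMA4 was at 6.85 and 9.27. In the other direction, fibrillin FBN2 at 6.68 and 4.13 and the collagen COL6A3 at 6.27 and 4.05. Of 22 proteases and inhibitors (median 0.12), 2 were 2-fold higher, the metalloprotease inhibitor TIMP1, at 11.77 in 2D with a difference of 1.23, and the metalloprotease ADAMTS1, at 4.31 and 6.15. ADAMTS1 was higher still with the TRIB1 hairpins, at 7.89 and 7.21. The hyaluronan synthase HAS2 was at 7.27 in 2D and 5.03 in the spheroid, with 5.04 to 5.61 on the hairpin arrays.

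Genes of the actin skeleton were more often lower than higher, and those of attachment were near the background. Of 30 actin and actomyosin genes, 19 were lower with a median of -0.22, and 16 were below all 4 other arrays. CNN3, an actin-binding calponin, was at 8.28 in 2D, 4.65 in the spheroid and 8.31 to 8.67 on the hairpin arrays. LIMA1, which bundles actin, was higher, at 8.23 and 10.26. Among 26 integrin and focal adhesion genes, 15 were lower and 10 higher (median -0.09). The caveolar coat protein CAV1 was at 11.87 and 10.05, with 12.08 to 12.88 on the hairpin arrays. The kindlin FERMT1 was at 10.43 and 8.62, and the integrin ITGB4 at 10.21 and 8.41. ITGB4 was as low on the array labelled shTRIB1-1 (8.19). The integrin ITGB8 was at 9.42 and 10.63.

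Of 24 Hippo pathway and YAP target genes, 15 were lower, none was 2-fold higher and 3 were 2-fold lower, with a median of -0.10. The membrane repair protein MYOF was at 11.63 and 10.43 and the receptor AXL at 8.63 and 7.63, both below all 4 other arrays. Tubulins and microtubule proteins were lower in 17 of 22 cases, 6 of them 2-fold, with a median of -0.59. TUBA1A was at 10.66 and 9.06 (-0.87 against the mean of 2D and shGFP) and the microtubule destabiliser STMN1 at 9.29 and 7.97, which was -0.61 as the median over its probe sets.

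Cell junction genes had no common direction. Among 20 tight junction and polarity genes (median 0.04), occludin OCLN was at 8.48 in 2D, 10.65 in the spheroid and 8.91 to 9.47 on the hairpin arrays, and MARVELD2 (tricellulin) was at 8.89 and 10.06. Claudin CLDN1 was at 6.84 and 5.12, with 8.72 to 9.97 on the hairpin arrays. Of 18 keratins and desmosome genes (median -0.08), KRT7 alone passed 2-fold, at 10.95 and 9.87. Among 13 cadherins and regulators of the epithelial-mesenchymal transition (median -0.08), N-cadherin CDH2 was at 9.05 and 6.87 and CDH11 at 7.29 and 6.08, both below all hairpin arrays. The epithelial factor EHF was at 6.87 in 2D and 9.31 in the spheroid but at 9.83 on the shTRIB1-2 array. Of 5 clade A and B serpins, 4 were lower (median -0.46), including SERPINB5 (maspin), at 10.89 and 9.40.

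**Figure D4:**
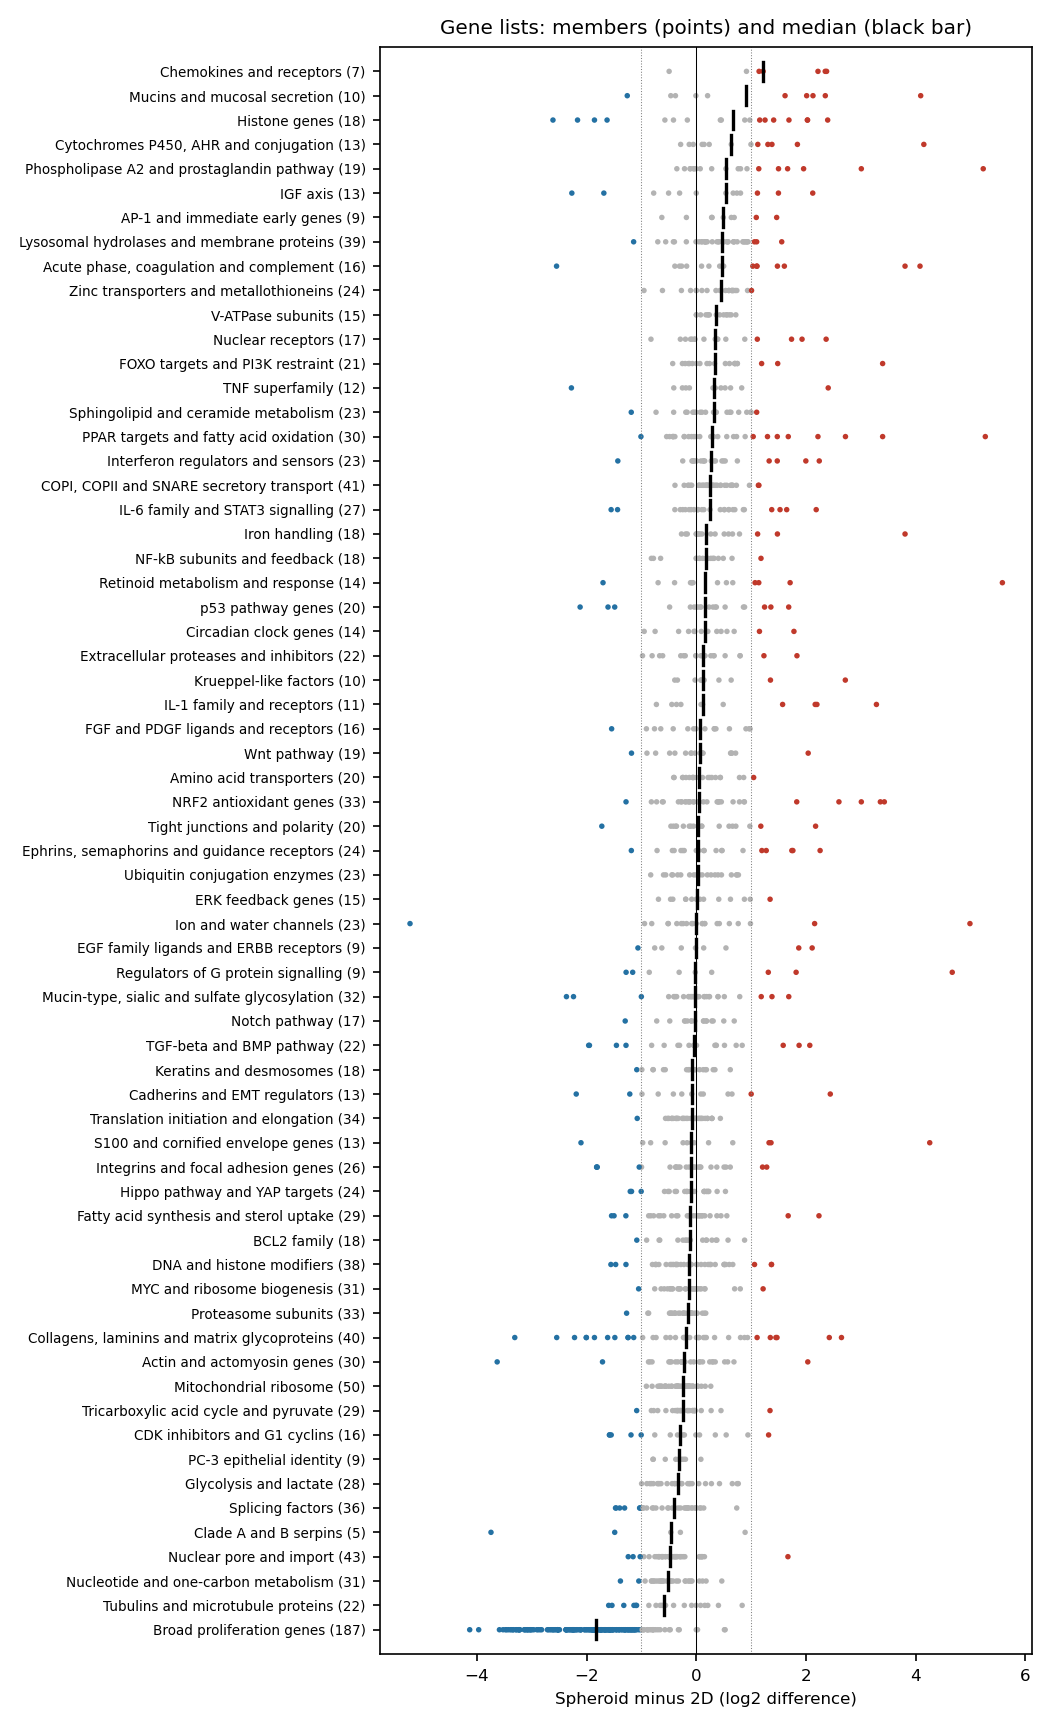
Differences between spheroid and 2D (log2, x axis) of the compared members of each list with at least 5 of them (points, 1 per gene, red from 1 upward and blue from -1 downward) and the list median (black bar), with the number of members in brackets. The proliferation list is apart at a median of -1.83, while the highest median, 1.22 for chemokines, rests on 7 genes.

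Some single genes in the lists of quiescence, hormone receptors and the clock were 2-fold higher, while other members were lower by less than 2-fold. In the list of FOXO targets and PI3K restraint, 14 of 21 were higher with a median of 0.33, and 3 were 2-fold higher, PDK4, CITED2 (6.81 in 2D, 8.29 in the spheroid) and FOXO1 itself (6.21 and 7.40). Both CITED2 and FOXO1 lay within the hairpin arrays' range. Of 17 nuclear receptors, 4 were 2-fold higher and none was 2-fold lower, with a median of 0.35. Against the mean of 2D and shGFP that median was 0.11. The thyroid hormone receptor THRB was at 7.51 and 9.87, with 7.15 to 9.32 on the hairpin arrays. The orphan receptor NR2F1 was at 8.90 and 10.82, below the 11.73 of the shTRIB1-2 array, and the glucocorticoid receptor NR3C1 at 8.99 and 10.11, with 9.62 to 10.15 on the hairpin arrays. Of 10 Krueppel-like factors (median 0.12), KLF13 passed 2-fold beside KLF4, at 8.15 and 9.50. Of 14 clock genes, 8 were higher and 6 lower (median 0.15). NFIL3 differed by 1.78, NR1D2 by 1.15 and BHLHE41 by -0.95.

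Histone genes differed in both directions. Of 18 compared, 7 were 2-fold higher and 4 were 2-fold lower, and the median was 0.67. H2BC21 was at 7.46 in 2D and 9.85 in the spheroid, H2AC6 at 9.28 and 11.30, and the linker histone H1-2 at 9.80 and 11.82, all 3 above the other arrays. The damage-marking variant H2AX was at 9.91 and 8.05 and the centromere variant CENPA at 8.15 and 5.54, both below the other arrays. The linker histone H1-3 was at 8.32 in 2D and 6.16 in the spheroid, but at 5.93 to 6.03 on the hairpin arrays. Histone genes are near-identical in places, and probes may not tell them apart. Among 38 modifiers of DNA and histones (median -0.12), the methyltransferase EZH2 was at 9.33 and 7.78 while its paralog EZH1 was at 6.52 and 7.58.

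RNA processing and nuclear transport were lower by small amounts in most members. Of 36 splicing factors, 31 were lower, 7 of them 2-fold, and 27 were below all 4 other arrays, with a median of -0.41. With medians over probe sets the list median was -0.17. Over all compared genes 27.6% were below all 4 other arrays. SNRPA, a protein of the U1 particle, was at 9.23 in 2D and 7.76 in the spheroid, and HNRNPL at 9.96 and 8.93. Probe sets of SRSF1, SRSF7 and TRA2A disagreed: their differences were -1.03, -1.46 and -1.40 but 0.22, -0.17 and -0.19 as medians over all probe sets. Of 43 nuclear pore and import genes, 35 were lower with a median of -0.48, with NUP210 at -1.24, the Ran-binding RANBP1 at -1.15 and the importin IPO5 at -1.02. NUP58 was the one 2-fold higher (1.67), but 0.00 as the median over its probe sets. Of 31 genes of MYC and ribosome biogenesis, 22 were lower with a median of -0.13, the rRNA methyltransferase FBL by the most (a difference of -1.05), while the MYC antagonist MXD1 was higher by 1.22.

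Central metabolism was slightly lower. Of 28 glycolysis genes, 21 were lower with a median of -0.33 and none past 2-fold, although PKM, the last kinase of the pathway, was at 8.73 and 7.73. Of 29 genes of the tricarboxylic acid cycle and pyruvate entry, 25 were lower with a median of -0.24. IDH2 differed by -1.09, while MPC1, a subunit of the mitochondrial pyruvate carrier, was higher by 1.34. Of 31 genes of nucleotide and one-carbon metabolism, 27 were lower with a median of -0.51, led by PFAS (-1.38) of purine synthesis and the kinase NME4 (-1.05). Amino acid transporters were near the background (20 genes, median 0.06), with the taurine carrier SLC6A6 at 1.05. Glycosylation genes were as well (32 genes, median -0.02), with the mucin initiating enzyme GALNT12 at 1.69.

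Organelle genes split into secretory and lysosomal lists, which were higher, and mitochondrial and proteasomal lists, which were lower. All 15 compared V-ATPase subunits, the proton pump of acidic organelles, were higher, by 0.37 at the median, though ATP6V1H and ATP6V0D1 by 0.00 after rounding. None passed 2-fold, and 6 of them were above all 4 other arrays. ATP6V1E1 was at 10.53 in 2D and 11.25 in the spheroid. Of 39 lysosomal hydrolases and membrane proteins, 32 were higher with a median of 0.47 and 20 were above all 4 other arrays. CD63 was at 11.91 and 12.83. TPP1, a lysosomal peptidase, was at 8.15 and 9.70, but its difference was 0.37 without probe sets ending in _s_at or _x_at. The acid lipase LIPA went the other way, at 11.31 and 10.17, but it differed by -0.02 as the median over its probe sets. Of 41 genes of COPI, COPII and SNARE transport, 35 were higher with a median of 0.26, led by the apical SNARE protein STX3 (8.40 and 9.54).

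Mitochondrial ribosome genes were lower in 44 of 50 cases with a median of -0.23 and none past 2-fold. Proteasome subunits were lower in 29 of 33 cases with a median of -0.15, PSMD2 by the most (11.38 in 2D, 10.11 in the spheroid). Over all compared genes 50.9% were lower by any amount and 47.3% higher, which is the background for these counts. Translation factors (34 genes, median -0.09), ubiquitin conjugation enzymes (23 genes, median 0.03) and the BCL2 family (18 genes, median -0.12) lay close to it. EIF5A differed by -1.08 and the death agonist BID by -1.08.

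Long noncoding RNAs, a class looked at after the data had been seen, were called higher more often than protein-coding genes. Of 363 compared, 55 (15.2%) were 2-fold higher and 9 (2.48%) lower, against 4.66% and 5.33% of 10060 protein-coding genes. Of the 55, 31 were below a level of 6 in 2D. Among genes at a level of 6 on both arrays, 24 of 261 long noncoding RNAs (9.20%) and 343 of 9419 protein-coding genes (3.64%) were 2-fold higher. The spheroid was above all 4 other arrays in 157 of the 363 (43.3%), against 25.6% of all compared genes. The 363 include genes that reached a level of 6 on the spheroid array alone, for which the filter itself puts the spheroid above 2D. The class also lay nearer the filter: the median of the higher level was 6.94, against 8.68 for protein-coding genes. MALAT1, an abundant nuclear RNA, was at 11.91 in 2D, 13.01 in the spheroid and 10.91 to 11.74 on the hairpin arrays, and its 12 probe sets were all higher, by 1.09 to 3.64. LINC02806 was at 3.94 in 2D with a difference of 4.07, and at 3.94 to 4.24 on the hairpin arrays. LINC02582 was at 8.10 and 5.89, and LOXL1-AS1 at 10.49 and 8.36.

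Genes sharing a symbol root gave 127 families of at least 10 compared genes. The lowest median was that of the MCM root, which holds the replicative helicase, at -1.29 with 8 of 11 genes 2-fold lower. NUP genes followed at -0.49 and KIF genes, the kinesins, at -0.46 with 10 of 26 2-fold lower. The highest medians were those of DUSP phosphatases (0.61 over 14 genes), NR nuclear receptors (0.38 over 11) and IL genes (0.34 over 24, with 6 of them 2-fold higher). Medians of symbol families were not recomputed against another reference or under other settings. RAB genes, small GTPases of vesicle traffic, were higher in 34 of 48 cases with a median of 0.21. The 288 compared ZNF genes had a median of 0.00, and the ribosomal RPL and RPS genes medians of -0.02 and 0.02.

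Runs of 3 or more neighbouring compared genes past 2-fold the same way were found at 8 places, AKR1C1 to AKR1C3 being the first. On chromosome 4, RASSF6 (7.34 in 2D, 9.17 in the spheroid) lay beside CXCL8, CXCL3 and CXCL2. RASSF6, a scaffold of Hippo signalling, was above all 4 other arrays, unlike the 3 chemokine genes. A second run on chromosome 4 joined FGB, FGG, MAP9 (1.07), GUCY1B1 (1.52) and CTSO (1.10), and another joined ANXA10 (7.32 and 9.53) with the helicase genes DDX60 (7.27 and 8.95) and DDX60L (7.31 and 8.47). On chromosome 12, AMN1, RESF1 and BICD1 were higher by 1.07, 1.55 and 1.47, and on chromosome 7 AHR lay between LOC101927609 (1.20) and LOC105375172. LOC105375172 was at 3.74 in 2D, under the filter, 7.88 in the spheroid and 7.62 on the shTRIB1-2 array, and with 32 added to each intensity it differed by 2.56. Of the lower runs, DKK1, LNCAROD (-1.01) and ZWINT (-1.79) were on chromosome 10, and PHF19 (-1.14), C5 and CNTRL (-1.78) on chromosome 9. Such runs hold unlike genes, and how many would arise without any link between neighbours was not tested.

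List medians near 0 were not stable in sign. Among others, the medians of the ERK feedback, Krueppel-like factor, collagen, keratin, cadherin, retinoid, NRF2, glycosylation and BCL2 lists turned or reached 0.00 under at least 1 setting.

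Several further genes fell short of 2-fold under another setting. Against the mean of 2D and shGFP, DHRS3, FOXO1, IRS2, JUND, KCNJ2, MAFF, MXD1, NR1D2, NR3C1, SLC6A6, EZH1, STX3, DDX60L and LOC101927609 differed by 0.53 to 0.95. On the lower side, CCNE2, CGAS, FBL, IDH2, LFNG, NME4, PDK1, NUP210, RANBP1 and SRSF1 differed by -0.98 to -0.70. FASN, LSS, H1-3, S1PR3, HNRNPL and MPC1 ended just short of the threshold. KLF4 differed by 1.39 on that scale, GDF15 by 1.08, H2AC6 by 1.29, EHF by 1.46, NFIL3 by 1.03 and HAS2 by -1.12. As medians over probe sets, ABCC3, BICD1, CD55, CITED2, IGFBP3, MPC1 and DDX60L differed by 0.77 to 0.99. AXL, BID, FASN, IDH2, LFNG, NUP210, S1PR3, SERPINB5 and CGAS differed by -0.93 to -0.24. On that scale LAMA4 differed by 1.21, PLIN2 by 1.09, CDH26 by 1.51 and HAS3 by -1.36. With 32 added to each intensity, FGG differed by 2.47, FBN2 by -1.44, COL6A3 by -1.17, and ADAMTS1, GUCY1B1, FGB and CTSO by 0.80 to 0.99. An added intensity shrinks the differences of low genes most by its construction.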

How the data were processed

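The authors deposited probe set intensities on a linear scale, made with RMA per the submitters' processing notes. No source used here gives the RMA version or the chip definition. RMA includes quantile normalization, which hides a change that moves most genes one way. Arrays have no sequencing depth, and their number limits the precision. Log2 was taken with no pseudocount. Of 54675 probe sets, 41097 carried 1 symbol, 1801 several and 11777 none. The RefSeq table of GRCh38.p14 matched 41043 by Entrez identifier. For each gene, the probe set whose mean over all 5 arrays was highest was kept. The members and lists were chosen with earlier results of these data known.

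Named genes were the 15 largest differences each way among genes at a level of 6 on both arrays, with the spheroid outside the range of the other 4 arrays. All probe sets at a level of 6 on either array had to share the sign, and lower probe sets were not checked. In each list they were up to 6 members with the largest absolute difference, and at least 1 of each direction past 2-fold. Members of runs of neighbours were named as well, and promoters of the 2 genes with the largest absolute difference that hold the motif whose share differed most. In a first run 4 longer motifs were also searched, and they were dropped after their shares had been seen, because of a rule on stored sequences. They are not reported here. Symbol families, gene classes and lower genes outside the proliferation list were chosen after the data were seen. Alternatives changed the level filter, the probe set rule, the reference, an added intensity of 32, centring and a lowess correction. For the median over probe sets, the level filter was applied to the median levels. Scripts used Python 3.11.15, pandas 2.3.3, numpy 2.4.6 and statsmodels 0.14.6 and were tested on simulated data.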

Additional observations from a re-analysis of the deposited data

How the results depend on the processing

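At a level filter of 8, which left 6554 genes instead of 10570, the count of genes 2-fold higher was 330. Of these, 256 were above all 4 other arrays as well. Under the other settings every count that was made stayed within 1.5 times its main value. Against the mean of 2D and shGFP, the counts outside the range of the other arrays were not made. SRSF1 turned to 0.22 as the median over all its probe sets, and CXCL3 to -0.43 when 2D and shGFP were averaged as the reference. Leaving out 1 of the arrays labelled shTRIB1 gave 445 to 447 higher and 479 to 495 lower genes outside the range of the rest. Against the mean of 2D and shGFP, 772 of 1087 called genes remained 2-fold in the same direction. With 32 added to each intensity 817 did, with the median over probe sets 710 of 877, and without probe sets ending in _s_at or _x_at 811 of 844. Of 67 list medians, 13 turned sign under at least 1 setting, the largest of them at 0.19 in size, and none of the 10 at 0.5 or beyond. Sizes were less stable: 46 of 65 medians shrank over 1.5 times under at least 1 setting, 8 of those 10 among them. The mucin and IGF medians reached 0.00, and the smallest values were 0.11 for cytochromes P450, 0.27 for prostaglandin, 0.32 for chemokine, 0.44 for histone, -0.28 for tubulin and 0.02 for blood and endothelial genes. No paired analysis was possible because each condition had 1 array.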
